A study of Mus musculus with 49 samples.

Results

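The 10 genes described here encode Atoh1 and other transcription regulators of the secretory branch of the mouse small intestinal epithelium, namely Spdef, Gfi1, Foxa3, Creb3l4, Klf4, Sox9, Sox4, Atoh8 and Cbfa2t3. They are a list of genes given by name, drawn up with earlier results of these data known, and all 10 were found among the 24062 genes of the deposited table of read counts and passed the filter on low counts that left 14837 genes for testing. RNA sequencing covered 25 libraries in 12 groups from adult mice of a mixed B6;129 background, all from epithelium of the proximal small intestine, and the other 24 of the 49 samples are not analysed here.

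The groups fall into unsorted crypts, in which whole crypts were collected, and sorted cells. Secretory progenitors came from crypts of Atoh1 F/F mice, with no Cre named in the label, given 48 mg/kg of DBZ (dibenzazepine, a gamma-secretase inhibitor that blocks Notch signalling) at the start and again at 12 h and taken at 38 h (DBZ crypts, 2 libraries). Another kind of secretory progenitor came from crypts of Rbpj F/F; Villin-CRE mice given 2 mg tamoxifen 2 times a day for 2 days and taken on day 3 (Rbpj-deleted crypts, 2 libraries). Enterocyte progenitors came from crypts of Atoh1 F/F; Villin-CRE mice given 1 mg tamoxifen for 5 days and taken 3 weeks later (Atoh1-deleted crypts, 2 libraries). Villin drives Cre across the intestinal epithelium, so both deletions are aimed at all epithelial lineages. How far they reached was not measured here. The DBZ and Atoh1-deleted crypts share the floxed Atoh1 allele.

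The sorted groups were goblet cells (wild type mice given 48 mg/kg DBZ, taken at 115 h, sorted as CD69+CD274+, 2 libraries), Paneth cells (CD24-high, UEA-lectin-high, 2 libraries), enteroendocrine cells (CD24-high, UEA-lectin-negative, 2 libraries) and CD274+CD69+ cells. The last were taken after 4 doses of 50 µg/kg diphtheria toxin on alternate days, 1 day after the last dose, in mice labelled wild type (2 libraries), or without toxin (2 libraries). Bmi1-GFP cells carry a GFP knock-in at 1 Bmi1 allele and were taken 36 h after 10 Gy of radiation (1 library) or without it (3 libraries). Lgr5-GFP cells, which carry GFP at the stem cell gene Lgr5, came from Lgr5EGFP-DTR mice (Lgr5-GFP-DTR, 2 libraries) and from Lgr5EGFP-IRES-CRE-ERT2 mice (Lgr5-GFP-Cre, 3 libraries).

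Each crypt makes absorptive enterocytes and several secretory cell types, among them mucus-producing goblet cells, Paneth cells that hold antimicrobial granules, and hormone-producing enteroendocrine cells. The choice between the branches depends on Notch signalling between neighbouring cells. Active Notch, acting through the DNA-binding protein Rbpj, turns on Hes1, and Hes1 represses Atoh1, so that a cell with little Notch activity can express Atoh1 and become secretory. Atoh1 is a basic helix-loop-helix activator that all secretory lineages of the mouse intestine need. Spdef, an ETS-family factor, and Gfi1, a zinc-finger repressor, act after it in goblet and Paneth cells.

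Total counts were between 11179085 and 27371108 per library, and no replicate pair agreed within counting noise. The labels call the replicates biological but do not say which share a mouse, litter or day, so p-values measure the spread between these samples. Where groups are said not to overlap, this describes their libraries only. The share of all genes whose groups did not overlap is not given here. Some facts of the libraries touch the results. The 2 Rbpj-deleted libraries and the first replicate of the untreated CD274+CD69+ cells were made with a TruSeq kit and all others with SMART-Seq, so that kit and Rbpj deletion cannot be told apart. The 7 enterocyte markers summed to 76754 to 88515 CPM (counts scaled to library size and TMM-normalised) in the goblet libraries and 71800 CPM in the irradiated library, against 980 to 9431 CPM in all others. The 4 goblet markers were also highest in the goblet libraries, at 51735 to 89974 CPM. The 4 Paneth markers summed to 97748 to 126230 CPM in the Lgr5-GFP-DTR libraries, whereas those of Lgr5-GFP-Cre cells held 24902 to 29337 CPM. Because these are bulk samples, fewer cells of a type and less RNA per cell cannot be told apart.

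The sequence just before the start of Atoh1 and of Sox4 is shown because these members hold 3 matches each to the sites of the Notch pathway's own factors. Hes proteins are known to bind CACGCG and CACNAG, and Rbpj binds a site with the core TGGGAA. Each stretch gives the 250 bases before the annotated start in RefSeq, build GRCm38.p6, from 5′ to 3′ on the gene's strand, with matches on either strand in capitals. The Atoh1 stretch lies at chr6:64728875-64729124 on the plus strand, and the Sox4 stretch at chr13:28953700-28953949 on the minus strand.
Atoh1: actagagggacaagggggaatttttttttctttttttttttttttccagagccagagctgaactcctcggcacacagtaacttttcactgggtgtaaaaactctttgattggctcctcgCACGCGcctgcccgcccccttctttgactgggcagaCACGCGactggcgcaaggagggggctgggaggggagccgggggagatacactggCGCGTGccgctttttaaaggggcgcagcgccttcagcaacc
Sox4: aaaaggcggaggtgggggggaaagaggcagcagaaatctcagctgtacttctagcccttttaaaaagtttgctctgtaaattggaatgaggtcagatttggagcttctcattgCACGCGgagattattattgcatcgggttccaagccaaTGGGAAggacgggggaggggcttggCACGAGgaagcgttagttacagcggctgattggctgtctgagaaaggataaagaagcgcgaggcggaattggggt
The 3 Atoh1 matches are all CACGCG, beginning 131, 95 and 41 bases before the start, the last of them on the other strand. In Sox4, CACGCG begins 137 bases, TGGGAA 100 bases and CACNAG 75 bases before the start. The motifs do not overlap in either stretch. CACGCG was found in 3 of 13 such stretches of 9 members, against 7.62% of 32851 promoter stretches of the same length, CACNAG in 3 of 13 against 36.7%, and TGGGAA in 3 of 13 against 21.6%. The E-box CANNTG, which basic helix-loop-helix factors bind, was in 9 of 13 against 66.2%, and TATAAA in 1 of 13 against 12.4%. The match is of letters only and shows no binding. Sox9 is named only.

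Atoh1, the gene floxed in the enterocyte progenitors, had 58.9 and 124 CPM in DBZ crypts and 23.1 and 38.1 CPM in Rbpj-deleted crypts, against 1.49 and 1.74 CPM in Atoh1-deleted crypts. The Atoh1-deleted crypts had the lowest values of all 25 libraries, and every library of the other groups had at least 18.2 CPM. Rbpj itself had 21.0 and 28.4 CPM in Rbpj-deleted crypts, against 39.5 and 32.8 CPM in DBZ crypts and 42.8 and 43.6 CPM in Atoh1-deleted crypts. The Rbpj-deleted libraries were the lowest of these 3 groups, though the 2 Lgr5-GFP-DTR libraries, in which Rbpj is not targeted, had 14.6 and 11.2 CPM. Counts over a whole gene do not show whether its floxed part was lost.

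Across the groups, Atoh1 was highest in goblet cells, with 157 and 161 CPM. DBZ crypts had 58.9 and 124 CPM, Lgr5-GFP-DTR cells 68.9 and 47.4 CPM and Paneth cells 67.3 and 48.7 CPM. Goblet cells stood clear of these 3 groups, which overlapped each other. Below them, Lgr5-GFP-Cre cells had 33.2, 40.1 and 38.6 CPM, toxin-treated CD274+CD69+ cells 40.0 and 29.5 CPM, Rbpj-deleted crypts 23.1 and 38.1 CPM and enteroendocrine cells 34.4 and 24.2 CPM. At the low end, untreated CD274+CD69+ cells had 24.0 and 24.2 CPM, Bmi1-GFP cells 19.6, 26.5 and 18.2 CPM and the irradiated library 19.7 CPM. From Lgr5-GFP-Cre cells down to the irradiated library each group overlapped the next in the order of means, Paneth cells did not overlap Lgr5-GFP-Cre cells, and Atoh1-deleted crypts stood apart at the bottom.

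**Figure D1:**
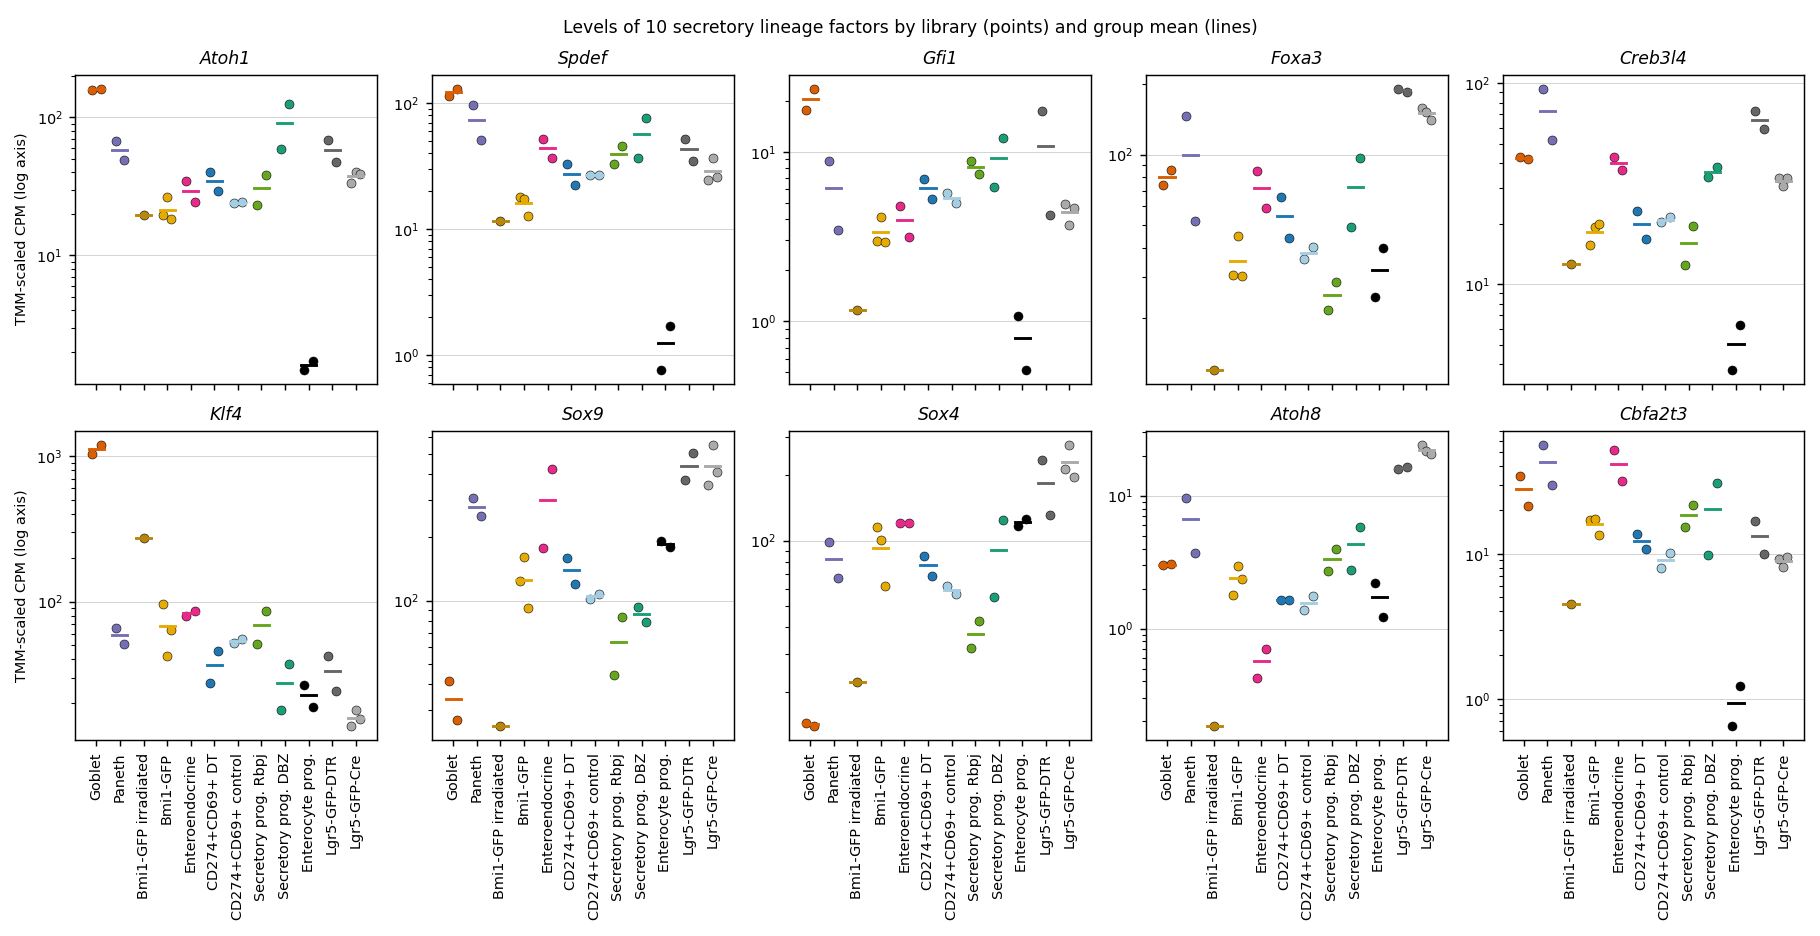
Each panel plots 1 member, with TMM-scaled CPM on a log axis, a point for each library and a line at each group's mean. Atoh1 runs from 1.49 CPM in Atoh1-deleted crypts (enterocyte prog.) to 161 CPM in goblet cells, while Sox4 has its lowest values, 14 and 14.5 CPM, in goblet cells.

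The other members fell into different orders. Spdef and Gfi1 had their highest mean in goblet cells and their lowest in Atoh1-deleted crypts, as Atoh1 did. Creb3l4, a transcription factor held in the endoplasmic reticulum membrane until it is cleaved, and Cbfa2t3, a corepressor of the ETO family, had their highest mean in Paneth cells and were also lowest in Atoh1-deleted crypts. For both, Paneth cells overlapped the next group. This was Lgr5-GFP-DTR cells for Creb3l4 (means 73.1 and 65.8 CPM) and enteroendocrine cells for Cbfa2t3 (43.0 and 41.7 CPM). Klf4, a zinc-finger factor of differentiated gut epithelium, was highest in goblet cells and lowest in Lgr5-GFP-Cre cells. Foxa3, a forkhead factor of gut epithelium, and Sox9, an HMG-box factor needed for Paneth cells, had their highest mean in Lgr5-GFP-DTR cells and were lowest in the irradiated library. For Sox9 the Lgr5-GFP-DTR and Lgr5-GFP-Cre cells overlapped, with means of 439 and 438 CPM. Sox4, another HMG-box factor of the crypt, had its highest mean in Lgr5-GFP-Cre cells, which overlapped Lgr5-GFP-DTR cells, and was lowest in goblet cells. Atoh8, a basic helix-loop-helix factor of the same family as Atoh1, was highest in Lgr5-GFP-Cre cells and lowest in the irradiated library.

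The comparison of secretory with enterocyte progenitors asks which genes separate crypts pushed to the secretory branch from crypts without Atoh1. In DBZ crypts, 5 of the 10 members rose over Atoh1-deleted crypts and 0 fell, in a comparison in which 2.46% of all genes tested were called, 1.89% higher and 0.573% lower, at an adjusted p under 0.05. The 5 were Atoh1, its known followers Spdef and Gfi1, Creb3l4 and Cbfa2t3. Atoh1 itself is the gene targeted in the denominator. Atoh1 was 54.7-fold higher (log2 fold change 5.77 ± 0.40 SE, adjusted p 6.4e-08).

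Spdef, which drives maturation of goblet and Paneth cells, had 37.0 and 76.4 CPM in DBZ crypts, against 0.765 and 1.71 CPM in Atoh1-deleted crypts. The groups were far apart, with a log2 fold change of 5.45 ± 0.47 and an adjusted p of 7.71e-07. Cbfa2t3 had 9.80 and 30.9 CPM in DBZ crypts, against 0.650 and 1.22 CPM in Atoh1-deleted crypts. The second DBZ library was the higher one for Cbfa2t3 as for Atoh1 and Spdef, and both lay above the Atoh1-deleted crypts, with a log2 fold change of 4.37 ± 0.53 and an adjusted p of 3.88e-05. Gfi1, which holds back the endocrine fate, had 6.21 and 12.0 CPM in DBZ crypts, against 1.07 and 0.518 CPM in Atoh1-deleted crypts (log2 3.48 ± 0.61, adjusted p 0.00209). The groups did not overlap, but the call was lost without the second Atoh1-deleted library (log2 3.08, adjusted p 0.0625). Creb3l4 had 34.2 and 38.3 CPM in DBZ crypts, against 3.75 and 6.28 CPM in Atoh1-deleted crypts. Its replicates were close together within each group, and its log2 fold change was 2.81 ± 0.30 with an adjusted p of 1.14e-05.

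The remaining 5 members were not called. Foxa3 had 49.0 and 96.4 CPM in DBZ crypts, against 24.5 and 39.7 CPM in Atoh1-deleted crypts (log2 1.14 ± 0.39, adjusted p 0.170). Sox9 had 93.1 and 79.1 CPM in DBZ crypts, against 191 and 180 CPM in Atoh1-deleted crypts (log2 -1.14 ± 0.35, adjusted p 0.109). These groups did not overlap for either gene, and both moved across the threshold with a change of setting: Sox9 was called by DESeq2 (log2 -1.11, adjusted p 0.0490) and in a fit of the compared groups only (log2 -1.13, adjusted p 0.0303), and Foxa3 without the first DBZ library (log2 1.58, adjusted p 0.0496). Klf4 had 18 and 37.5 CPM in DBZ crypts, against 26.8 and 19.0 CPM in Atoh1-deleted crypts, and overlapped. Sox4 had 55.2 and 125 CPM in DBZ crypts, against 117 and 126 CPM in Atoh1-deleted crypts, and also overlapped. Atoh8 had 2.75 and 5.86 CPM in DBZ crypts, against 2.22 and 1.22 CPM in Atoh1-deleted crypts (log2 1.28 ± 0.45, adjusted p 0.176). The 2 DBZ libraries were uneven in other ways, with stem markers summing to 203 and 1364 CPM, and the part of this in the members' values was not tested.

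In Rbpj-deleted crypts, 8 of the 10 members were called against Atoh1-deleted crypts, 6 higher and 2 lower, where 28.2% of all genes were called, 15.1% higher and 13% lower. Atoh1, Spdef, Gfi1, Creb3l4 and Cbfa2t3 were again higher, and Klf4 joined them. Sox9 and Sox4 were lower. This comparison sets TruSeq libraries against SMART-Seq libraries, so that the kit cannot be told apart from the deletion.

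Atoh1, with the libraries given above, was 18.9-fold higher (log2 4.24 ± 0.37, adjusted p 2.69e-07). Spdef had 33.0 and 46 CPM in Rbpj-deleted crypts, against 0.765 and 1.71 CPM in Atoh1-deleted crypts, a log2 fold change of 4.97 ± 0.46 with an adjusted p of 4e-07. Cbfa2t3 had 15.2 and 21.7 CPM in Rbpj-deleted crypts, against 0.650 and 1.22 CPM in Atoh1-deleted crypts (log2 4.28 ± 0.53, adjusted p 9.21e-06). For all 3, every Rbpj-deleted library lay far above both Atoh1-deleted ones. Gfi1 had 8.80 and 7.35 CPM in Rbpj-deleted crypts, against 1.07 and 0.518 CPM in Atoh1-deleted crypts (log2 3.36 ± 0.61, adjusted p 4.85e-04). Creb3l4 had 12.5 and 19.5 CPM in Rbpj-deleted crypts, against 3.75 and 6.28 CPM in Atoh1-deleted crypts (log2 1.67 ± 0.29, adjusted p 3.52e-04). Neither gene's groups overlapped.

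Sox4 had 31.9 and 42.8 CPM in Rbpj-deleted crypts, against 117 and 126 CPM in Atoh1-deleted crypts (log2 -1.70 ± 0.35, adjusted p 0.00133). Sox9 had 44.2 and 83.1 CPM in Rbpj-deleted crypts, against 191 and 180 CPM in Atoh1-deleted crypts (log2 -1.54 ± 0.36, adjusted p 0.0034). Both HMG-box genes were lower in each Rbpj-deleted library than in each Atoh1-deleted one, and Sox9 lost its call without the first Rbpj-deleted library (log2 -1.16, adjusted p 0.0744). Klf4 had 50.7 and 86.5 CPM in Rbpj-deleted crypts, against 26.8 and 19.0 CPM in Atoh1-deleted crypts (log2 1.59 ± 0.38, adjusted p 0.00443). The groups did not overlap, but the Klf4 call was lost without the second Atoh1-deleted library (log2 1.35, adjusted p 0.0820) and without the second Rbpj-deleted library (log2 1.15, adjusted p 0.0858). Foxa3 had 21.7 and 28.5 CPM in Rbpj-deleted crypts, against 24.5 and 39.7 CPM in Atoh1-deleted crypts, and overlapped, and Atoh8 was not called either (log2 0.97 ± 0.45, adjusted p 0.117).

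**Figure D2:**
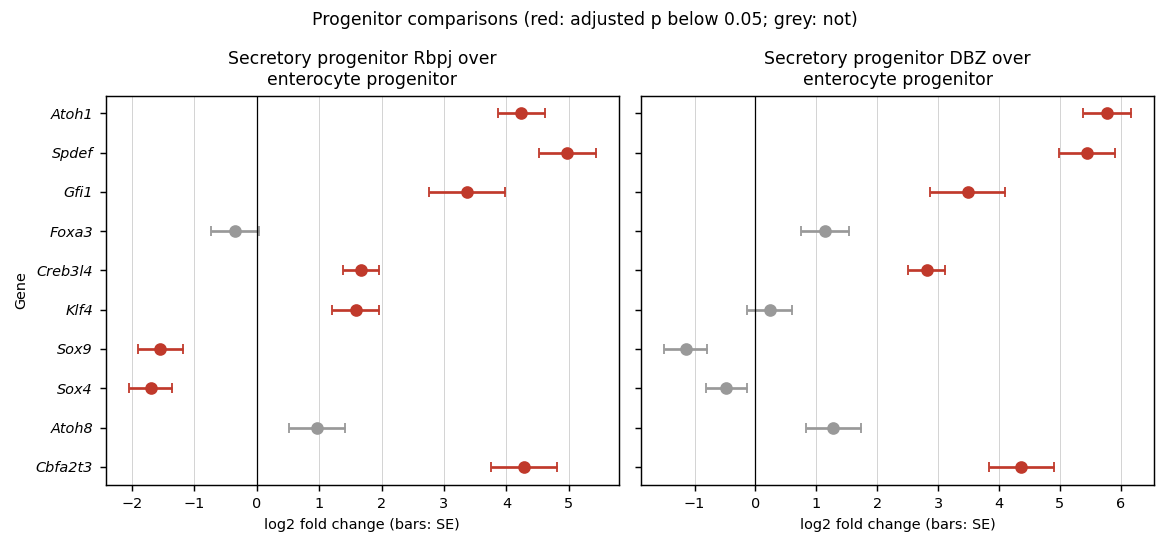
Each point is the log2 fold change of 1 member, with its standard error, in Rbpj-deleted crypts over Atoh1-deleted crypts (left) and in DBZ crypts over Atoh1-deleted crypts (right), red where the adjusted p was below 0.05. Atoh1, Spdef, Gfi1, Creb3l4 and Cbfa2t3 are red and above 0 in both panels, and Sox9 and Sox4 are red in the left panel only.

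Both comparisons share the Atoh1-deleted crypts, so the 2 kinds of secretory progenitor were also compared directly. In Rbpj-deleted crypts 5 of the 10 members were called against DBZ crypts, 1 higher and 4 lower, where 24.7% of all genes were called, 12.9% higher and 11.9% lower. Atoh1 (log2 -1.54 ± 0.32, adjusted p 0.00181), Foxa3 (log2 -1.49 ± 0.40, adjusted p 0.0101), Sox4 (log2 -1.22 ± 0.34, adjusted p 0.0140) and Creb3l4 (log2 -1.14 ± 0.28, adjusted p 0.00633) were lower in Rbpj-deleted crypts, and Klf4 was higher (log2 1.35 ± 0.38, adjusted p 0.0134). Spdef, Gfi1, Sox9, Atoh8 and Cbfa2t3 overlapped between the 2 kinds of crypt and were not called (log2 -0.47, -0.12, -0.40, -0.31 and -0.09). Each of the 5 calls was lost when at least 1 library was left out: without the second DBZ library Atoh1 had a log2 fold change of -0.93 (adjusted p 0.0659), Foxa3 -0.95 (adjusted p 0.168) and Sox4 -0.55 (adjusted p 0.340). Without the first Rbpj-deleted library Creb3l4 had -0.89 (adjusted p 0.0743), Foxa3 -1.35 (adjusted p 0.0741) and Sox4 -1.07 (adjusted p 0.105), while Klf4 had 0.87 without the first DBZ library (adjusted p 0.189) and 0.87 without the second Rbpj-deleted library (adjusted p 0.223).

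The genes that secretory cells make were also higher in both kinds of secretory progenitor than in Atoh1-deleted crypts. None of the groups was of untreated, unsorted crypts, so a rise from untreated crypts is not shown. Of 10 goblet cell products, 10 rose and 0 fell in DBZ crypts over Atoh1-deleted crypts, with a median log2 fold change of 6.71 against -0.01 for all genes. Of 8 Paneth cell products 8 rose (median 7.93), where 1.89% of all genes were called higher and 0.573% lower. Over Lgr5-GFP-Cre cells, Atoh1-deleted crypts had all 10 goblet and all 8 Paneth products lower (median log2 -5.69 and -8.90). Of all genes, 22.2% were called higher and 17.2% lower in that comparison. DBZ crypts had 7 goblet products higher and 0 lower over Lgr5-GFP-Cre cells, and 0 Paneth products higher and 5 lower (2.12 and -1.55). There 21% of all genes were called higher and 15.7% lower. Muc2, the main mucin of goblet cells, averaged 515 ± 125 CPM in DBZ crypts and 6.68 ± 3.18 CPM in Atoh1-deleted crypts (SD, n = 2 each; log2 6.23 ± 0.44, adjusted p 6.4e-08). Of 12 endocrine branch factors 10 rose and 0 fell in DBZ crypts, with a median log2 fold change of 6.55, or 6.19 with genes that had no count in 1 group set at their bound. Isl1, a homeobox factor of endocrine cells, averaged 4.60 ± 0.64 CPM in DBZ crypts and 0.03 ± 0.04 CPM in Atoh1-deleted crypts (log2 6.82 ± 0.76, adjusted p 1.75e-05), where it had at most 3 counts, so that the size of the fold depends on the fit. In Rbpj-deleted crypts 9 of the 10 goblet products, 8 of the 8 Paneth products and 11 of the 12 endocrine factors rose over Atoh1-deleted crypts, and none of these 3 lists had a member that fell. For all genes the shares called were 15.1% higher and 13% lower. Tuft cell markers summed to 74.7 and 74.9 CPM in DBZ crypts, against 402 and 839 CPM in Atoh1-deleted crypts, and 0 of the 4 were called in either direction.

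Of 18 Notch pathway genes, 2 rose and 2 fell in DBZ crypts over Atoh1-deleted crypts, where 2.46% of all genes were called. Their median log2 fold change was 0.40 against -0.01 for all genes. Dll1, a Notch ligand that secretory progenitors display, averaged 69.7 ± 41.9 CPM in DBZ crypts and 14.7 ± 2.3 CPM in Atoh1-deleted crypts (log2 2.20 ± 0.32, adjusted p 2.93e-04). Dll3, another ligand of the Delta family, was also called, at 1.98 ± 1.37 CPM in DBZ crypts, against 0 counts in both Atoh1-deleted libraries. The receptor Notch1 and the Notch-modifying enzyme Lfng fell (log2 -1.25 ± 0.31, adjusted p 0.0376, and log2 -1.23 ± 0.32, adjusted p 0.0473). Hes1, the Notch target that represses Atoh1, averaged 57.0 ± 35.7 CPM in DBZ crypts and 49.7 ± 10.6 CPM in Atoh1-deleted crypts, with a log2 fold change of 0.17 ± 0.40 (adjusted p 0.974).

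Of 20 partners and paralogues of the members that could be tested, 2 rose and 0 fell in the same comparison (median log2 -0.13). They were Creb3l1, a relative of Creb3l4 (log2 2.41 ± 0.35, adjusted p 3.05e-04), and Runx1t1, a relative of Cbfa2t3 (log2 5.46 ± 0.75, adjusted p 1.91e-04), which had only 0.03 ± 0.04 CPM in Atoh1-deleted crypts, again from at most 3 counts. The E proteins Tcf3, Tcf4 and Tcf12, which pair with Atoh1 on DNA, were not called (log2 -0.21, -0.46 and -0.16). Gfi1b, the close relative of Gfi1 and a tuft cell factor, averaged 1.53 ± 0.05 CPM in DBZ crypts and 20.2 ± 6.77 CPM in Atoh1-deleted crypts, with a log2 fold change of -3.75 ± 1.01 (adjusted p 0.0592). In Rbpj-deleted crypts 4 of these 20 rose and 6 fell over Atoh1-deleted crypts, where 28.2% of all genes were called. Among them were Klf5, a relative of Klf4 (log2 -1.88 ± 0.23, adjusted p 7.17e-06), and Tcf12 (log2 0.78 ± 0.18, adjusted p 0.00322).

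The sorted Lgr5-GFP-Cre cells, which hold the crypt base stem cells, served as the shared denominator for the remaining groups. These comparisons share the 3 Lgr5-GFP-Cre libraries and are given side by side. Against them Atoh1-deleted crypts had 9 of the 10 members lower and 0 higher, where 39.4% of all genes were called, 22.2% higher and 17.2% lower. Atoh1 itself (log2 -4.49 ± 0.37, adjusted p 2.32e-07), Spdef (log2 -4.49 ± 0.44, adjusted p 1.19e-06) and Cbfa2t3 (log2 -3.21 ± 0.49, adjusted p 9.04e-05) were lower. Atoh8 had 2.22 and 1.22 CPM in Atoh1-deleted crypts, against 24.1, 21.8 and 20.7 CPM in Lgr5-GFP-Cre cells (log2 -3.67 ± 0.46, adjusted p 1.33e-05). The groups were far apart, and Creb3l4 (log2 -2.68 ± 0.29), Gfi1 (log2 -2.46 ± 0.57) and Foxa3 (log2 -2.21 ± 0.38) were lower too.

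Only Klf4 was not called there, with 26.8 and 19.0 CPM in Atoh1-deleted crypts, against 13.9, 17.9 and 15.5 CPM in Lgr5-GFP-Cre cells (log2 0.57 ± 0.34, adjusted p 0.197). Sox9 (log2 -1.21 ± 0.33, adjusted p 0.00776) and Sox4 (log2 -0.88 ± 0.32, adjusted p 0.0333) fell least, and their calls were lost without either Atoh1-deleted library (Sox9 -1.28 and -1.19, Sox4 -0.86 and -0.96, adjusted p 0.0622 to 0.170). Sox4 was also not called without the first or the second Lgr5-GFP-Cre library (log2 -0.91 and -0.76, adjusted p 0.0540 and 0.0852). The crypts were unsorted and the Lgr5-GFP cells sorted. Paneth markers summed to 29.0 to 46.5 CPM in Atoh1-deleted crypts, against 24902 to 29337 CPM in Lgr5-GFP-Cre cells. All 4 stem markers were lower too (1570 to 1942 CPM, against 4790 to 6901 CPM), as were all 4 goblet markers. All 4 tuft and all 5 immune markers were higher. The part of these differences in the members' values was not tested.

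DBZ crypts had 7 of the 10 members called against Lgr5-GFP-Cre cells, 3 higher and 4 lower, where 36.7% of all genes were called, 21% higher and 15.7% lower. Atoh1 (log2 1.28 ± 0.28, adjusted p 0.00186), Spdef (log2 0.96 ± 0.33, adjusted p 0.0317) and Cbfa2t3 (log2 1.16 ± 0.40, adjusted p 0.0296) were higher. Atoh8 (log2 -2.39 ± 0.43, adjusted p 3.35e-04), Sox9 (log2 -2.35 ± 0.35, adjusted p 6.21e-05), Sox4 (log2 -1.36 ± 0.32, adjusted p 0.00319) and Foxa3 (log2 -1.07 ± 0.36, adjusted p 0.0285) were lower. The 3 rises rested on the second DBZ library, without which Atoh1 had a log2 fold change of 0.67 (adjusted p 0.124), Spdef 0.37 (adjusted p 0.529) and Cbfa2t3 0.14 (adjusted p 0.856), and the falls of Foxa3 and Sox4 on the first (without it -0.64 and -0.87, adjusted p 0.283 and 0.0778). Leaving out single Lgr5-GFP-Cre libraries also ended the calls of Cbfa2t3 (any of the 3, adjusted p 0.0532 to 0.0762), Spdef (the first or the third, 0.0885 to 0.0892) and Foxa3 (the first, 0.0637), and Spdef and Cbfa2t3 were not called with the replicate numbers as a block (adjusted p 0.0851 and 0.0622). Gfi1 (adjusted p 0.109), Klf4 (log2 0.80 ± 0.34, adjusted p 0.0738) and Creb3l4 (log2 0.13 ± 0.25, adjusted p 0.717) were not called, though Klf4 was without the first DBZ library (log2 1.25, adjusted p 0.0234). In DBZ crypts 4 of 4 stem markers were lower, summing to 203 and 1364 CPM, against 4790 to 6901 CPM in Lgr5-GFP-Cre cells, and 4 of 4 Paneth markers were lower, at 2937 to 11316 CPM, against 24902 to 29337 CPM. Of the goblet and tuft markers 3 of 4 each were higher. Their part in the members' values was not tested.

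Goblet cells had 9 of the 10 members called against Lgr5-GFP-Cre cells, 5 higher and 4 lower, in a comparison in which 69.7% of all genes were called, 34.4% higher and 35.4% lower. Klf4 stood out in size. It had 1032 and 1197 CPM in goblet cells, against 13.9, 17.9 and 15.5 CPM in Lgr5-GFP-Cre cells, a 59.9-fold difference (log2 5.91 ± 0.38, adjusted p 2.75e-10). Both goblet libraries were far above all others, the next being the irradiated library with 274 CPM. These are the 3 libraries with the high enterocyte marker sums given above, and the part of those cells in the Klf4 level was not tested.

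Atoh1 (log2 1.85 ± 0.28, adjusted p 1.11e-05), Spdef (log2 1.85 ± 0.34, adjusted p 7.71e-05) and Gfi1 (log2 1.97 ± 0.49, adjusted p 0.00152) were higher in goblet cells. Gfi1 had 17.6 and 23.6 CPM in goblet cells, against 4.89, 3.71 and 4.69 CPM in Lgr5-GFP-Cre cells, with no overlap. Cbfa2t3 was higher as well (log2 1.40 ± 0.40, adjusted p 0.00464), though not without the first goblet library (log2 1.03, adjusted p 0.0817). Creb3l4 had 43.1 and 42.1 CPM in goblet cells, against 33.7, 30.8 and 33.9 CPM in Lgr5-GFP-Cre cells, and was not called (log2 0.13 ± 0.25, adjusted p 0.656).

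Both HMG-box genes were much lower in goblet cells. Sox4 had 14.5 and 14 CPM in goblet cells, against 215, 276 and 196 CPM in Lgr5-GFP-Cre cells, 18.9-fold lower (log2 -4.24 ± 0.38, adjusted p 1.32e-08). Sox9 had 41.3 and 26.9 CPM in goblet cells, against 354, 550 and 411 CPM in Lgr5-GFP-Cre cells, 15.1-fold lower (log2 -3.92 ± 0.38, adjusted p 3.93e-08). Neither overlapped. Atoh8 had 3.01 and 3.04 CPM in goblet cells, against 24.1, 21.8 and 20.7 CPM in Lgr5-GFP-Cre cells (log2 -3.12 ± 0.45, adjusted p 6.25e-06). Foxa3 was lower (log2 -1.15 ± 0.37, adjusted p 0.00936), a call lost without the first goblet library (log2 -1.04, adjusted p 0.0758). Stem markers summed to 11.8 to 12.6 CPM in goblet cells, against 4790 to 6901 CPM in Lgr5-GFP-Cre cells, and their part in the falls was not tested.

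Among Notch pathway genes 3 of 18 rose and 7 fell in goblet cells over Lgr5-GFP-Cre cells (median log2 0.16 against 0.00 for all genes). Of all genes 69.7% were called there, 34.4% higher and 35.4% lower. Hes1 averaged 17.2 ± 3.1 CPM in goblet cells and 217 ± 12.9 CPM in Lgr5-GFP-Cre cells (SD, n = 2 and 3; log2 -3.90 ± 0.44, adjusted p 2.35e-07), and the Notch target Nrarp and the receptor Notch1 fell as well (log2 -4.45 ± 0.56 and -2.74 ± 0.33, adjusted p 1.12e-06 and 5.56e-07). Of the 20 partners and paralogues tested 6 rose and 6 fell, beside the same shares of all genes. Creb3l2, a relative of Creb3l4, averaged 159 ± 1.6 CPM in goblet cells and 4.97 ± 0.98 CPM in Lgr5-GFP-Cre cells (log2 4.76 ± 0.32, adjusted p 3.62e-10), beside the 0.13 of Creb3l4. The Atoh1 partner Tcf3 fell by 3.32 ± 0.28 on the log2 scale (adjusted p 7.22e-09).

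Goblet cells and DBZ crypts came from mice given the same dose of DBZ, sampled at 115 h and 38 h, the goblet cells sorted and the crypts not. Of the 10 members 4 were called, 2 higher and 2 lower, where 55% of all genes were called, 24.9% higher and 30.1% lower. Klf4 was higher in goblet cells (log2 5.11 ± 0.44, adjusted p 2.46e-08), and Sox4 (log2 -2.88 ± 0.37, adjusted p 2.71e-06) and Sox9 (log2 -1.57 ± 0.36, adjusted p 0.00113) were lower. Spdef was called by the narrowest margin (log2 0.89 ± 0.37, adjusted p 0.04999), with 114 and 131 CPM in goblet cells, against 37.0 and 76.4 CPM in DBZ crypts. That call was lost without the first DBZ library (log2 0.68, adjusted p 0.216) and without either goblet library (log2 0.99 and 0.78, adjusted p 0.0851 and 0.181), with the replicate block (adjusted p 0.0579) and with the compared groups only (adjusted p 0.0537). Atoh1 was not called (log2 0.58 ± 0.31, adjusted p 0.129), but was under DESeq2 size factors (log2 0.85, adjusted p 0.0333). It was also called by the DESeq2 test (log2 0.85, adjusted p 0.0275) and without the TruSeq libraries (log2 0.79, adjusted p 0.0417). Without the second DBZ library its log2 fold change was 1.18. The median of all genes in this comparison was 0.19 with DESeq2 size factors and 0.13 without the TruSeq libraries, against -0.07. The cause of the change for Atoh1 was not tested. Gfi1 (log2 0.95), Foxa3 (-0.08), Creb3l4 (0.00), Atoh8 (-0.73) and Cbfa2t3 (0.24) were not called, though Cbfa2t3 was without the second DBZ library (log2 1.25, adjusted p 0.0359).

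Paneth cells had 6 of the 10 members called against Lgr5-GFP-Cre cells, 4 higher and 2 lower, where 40.7% of all genes were called, 21.6% higher and 19.1% lower. Cbfa2t3 had 56.3 and 29.7 CPM in Paneth cells, against 9.18, 8.13 and 9.50 CPM in Lgr5-GFP-Cre cells (log2 2.25 ± 0.40, adjusted p 2.79e-04). Creb3l4 had 94.0 and 52.2 CPM in Paneth cells, against 33.7, 30.8 and 33.9 CPM in Lgr5-GFP-Cre cells (log2 1.14 ± 0.25, adjusted p 0.00144). The first Paneth library was the higher one for both genes, and neither overlapped the Lgr5-GFP-Cre cells. Klf4 (log2 1.88 ± 0.34, adjusted p 3.15e-04) and Spdef (log2 1.35 ± 0.34, adjusted p 0.00375) were higher as well. Sox4 (log2 -1.48 ± 0.33, adjusted p 0.00152) and Atoh8 (log2 -1.76 ± 0.42, adjusted p 0.00265) were lower.

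Sox9, known for its role in Paneth cells, had 306 and 252 CPM in Paneth cells, against 354, 550 and 411 CPM in Lgr5-GFP-Cre cells, and was not called (log2 -0.66 ± 0.32, adjusted p 0.114). Atoh1 (log2 0.63 ± 0.28, adjusted p 0.0871), Gfi1 (log2 0.44) and Foxa3 (log2 -0.61) were not called either. Without the first Paneth library Spdef (log2 0.78, adjusted p 0.129) and Creb3l4 (log2 0.63, adjusted p 0.0856) lost their calls and Foxa3 gained one as lower (log2 -1.57, adjusted p 0.00536), while Atoh8 lost its call without the second (log2 -1.21, adjusted p 0.0576). All 10 goblet products and all 8 Paneth products rose in Paneth cells (median log2 2.26 and 2.65, against 0.01 for all genes). Of the 20 partners and paralogues tested 9 rose and 5 fell, where 40.7% of all genes were called. Among them were Tcf12 (log2 1.49 ± 0.16, adjusted p 2.72e-06) and Tcf3 (log2 -1.61 ± 0.26, adjusted p 1.08e-04), both partners of Atoh1.

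Goblet cells differed from Paneth cells in 7 of the 10 members, 3 higher and 4 lower, where 53.8% of all genes were called, 23% higher and 30.8% lower. Of 7 enterocyte markers 6 were higher in goblet cells, as were 4 of 4 goblet markers. The stem, Paneth and proliferation markers were lower, 4 of 4 in each list. Their part in the members' differences was not tested. Klf4 (log2 4.02 ± 0.42, adjusted p 3.88e-07), Atoh1 (log2 1.23 ± 0.32, adjusted p 0.0032) and Gfi1 (log2 1.53 ± 0.55, adjusted p 0.0263) were higher in goblet cells. Sox9 (log2 -3.26 ± 0.38, adjusted p 1.47e-06), Sox4 (log2 -2.77 ± 0.37, adjusted p 5.93e-06), Creb3l4 (log2 -1.01 ± 0.28, adjusted p 0.00536) and Atoh8 (log2 -1.35 ± 0.46, adjusted p 0.0184) were lower. With the compared groups only, Creb3l4 (log2 -0.88, adjusted p 0.0633) and Atoh8 (log2 -1.22, adjusted p 0.118) were not called. Nor was Atoh8 without the TruSeq libraries (log2 -1.12, adjusted p 0.0604). The Gfi1 call was lost without the second Paneth library (log2 0.98, adjusted p 0.224) or the second goblet library (log2 1.30, adjusted p 0.130). Creb3l4 lost its call without the first Paneth library (log2 -0.50, adjusted p 0.182), and so did Atoh8 (log2 -0.49, adjusted p 0.434), which was also not called without either goblet library (log2 -1.34 and -1.37, adjusted p 0.0815 to 0.0849). Spdef (log2 0.50), Foxa3 (-0.54) and Cbfa2t3 (-0.85) were not called, though Foxa3 and Cbfa2t3 were, as lower, without the second Paneth library (log2 -1.12 and -1.26, adjusted p 0.0177 and 0.0463).

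Enteroendocrine cells had 5 of the 10 members called against Lgr5-GFP-Cre cells, 2 higher and 3 lower, where 45.9% of all genes were called, 25.5% higher and 20.4% lower. Cbfa2t3 had 51.5 and 31.9 CPM in enteroendocrine cells, against 9.18, 8.13 and 9.50 CPM in Lgr5-GFP-Cre cells (log2 2.28 ± 0.40, adjusted p 2.05e-04). Klf4 had 79.4 and 86.3 CPM in enteroendocrine cells, against 13.9, 17.9 and 15.5 CPM in Lgr5-GFP-Cre cells (log2 2.45 ± 0.34, adjusted p 2.59e-05). Neither gene's groups overlapped. Atoh8 had 0.428 and 0.706 CPM in enteroendocrine cells, from 8 and 19 counts, against 24.1, 21.8 and 20.7 CPM in Lgr5-GFP-Cre cells, 37.0-fold lower (log2 -5.21 ± 0.52, adjusted p 1.15e-06). It was the lowest group for Atoh8 apart from the irradiated library.

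Foxa3 (log2 -1.01 ± 0.36, adjusted p 0.0308) and Sox4 (log2 -0.87 ± 0.32, adjusted p 0.0318) were lower in enteroendocrine cells, the first only while the second enteroendocrine and the first Lgr5-GFP-Cre library were both kept (otherwise -0.74 and -0.95, adjusted p 0.231 and 0.0641). Sox4 lost its call without either enteroendocrine library (log2 -0.91 and -0.83, adjusted p 0.109 and 0.138) and without the second Lgr5-GFP-Cre library (log2 -0.74, adjusted p 0.0875). Atoh1 overlapped, with 34.4 and 24.2 CPM in enteroendocrine cells, against 33.2, 40.1 and 38.6 CPM in Lgr5-GFP-Cre cells. Sox9 was uneven between the enteroendocrine libraries, at 179 and 420 CPM. Sox9 was not called (log2 -0.51 ± 0.32, adjusted p 0.208), but was without the second of them (log2 -1.20, adjusted p 0.0201). Spdef (log2 0.68), Creb3l4 (0.33) and Gfi1 (-0.12) were not called. Of the 12 endocrine factors 11 rose and 0 fell (median log2 3.64), where 25.5% of all genes were called higher. The Cbfa2t3 relative Runx1t1 rose by a log2 of 5.35 ± 0.51 (adjusted p 8.36e-07). All 4 stem markers were lower in enteroendocrine cells (839 to 907 CPM, against 4790 to 6901 CPM in Lgr5-GFP-Cre cells), as were 3 of 4 proliferation markers. Paneth markers summed to 29381 to 32552 CPM in enteroendocrine cells, against 24902 to 29337 CPM in Lgr5-GFP-Cre cells. Tuft markers summed to 450 and 2368 CPM, against 8.60 to 13.9 CPM. The part of these lists in the members' values was not tested.

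Paneth cells differed from enteroendocrine cells in 3 of the 10 members, 3 higher and 0 lower, where 29.4% of all genes were called, 14% higher and 15.4% lower. Atoh8 had 9.59 and 3.69 CPM in Paneth cells, against 0.428 and 0.706 CPM in enteroendocrine cells (log2 3.45 ± 0.51, adjusted p 2.29e-04), with no overlap. Atoh1 (log2 0.91 ± 0.32, adjusted p 0.0377) and Creb3l4 (log2 0.81 ± 0.28, adjusted p 0.0363) were higher in Paneth cells, but lost their calls without the first Paneth library (log2 0.64 and 0.30, adjusted p 0.227 and 0.488) and without either enteroendocrine library (adjusted p 0.0544 to 0.229). Cbfa2t3 overlapped between the groups, which had the 2 highest means of that gene. Spdef (log2 0.67), Gfi1 (0.56), Foxa3 (0.40), Klf4 (-0.57), Sox9 (-0.15) and Sox4 (-0.61) were not called.

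Bmi1-GFP cells, once described as reserve stem cells, had 8 of the 10 members called against Lgr5-GFP-Cre cells, 1 higher and 7 lower, where 50.4% of all genes were called, 27.9% higher and 22.5% lower. Klf4 had 96.9, 42.4 and 63.7 CPM in Bmi1-GFP cells, against 13.9, 17.9 and 15.5 CPM in Lgr5-GFP-Cre cells (log2 2.08 ± 0.32, adjusted p 5.47e-05). Foxa3 had 30.4, 44.9 and 30.3 CPM in Bmi1-GFP cells, against 158, 153 and 141 CPM in Lgr5-GFP-Cre cells (log2 -2.12 ± 0.33, adjusted p 6.23e-05). Neither overlapped. Atoh8 (log2 -3.24 ± 0.38, adjusted p 5.44e-06), Sox9 (log2 -1.81 ± 0.29, adjusted p 8.9e-05), Sox4 (log2 -1.32 ± 0.28, adjusted p 8.93e-04) and Creb3l4 (log2 -0.87 ± 0.23, adjusted p 0.00473) were lower. So were Atoh1 (log2 -0.82 ± 0.26, adjusted p 0.0144) and Spdef (log2 -0.87 ± 0.31, adjusted p 0.0263). The Atoh1 call was lost without the first or the third Bmi1-GFP library (log2 -0.74 and -0.70, adjusted p 0.0583 and 0.0630), and that of Spdef without the third (log2 -0.72, adjusted p 0.103) or the second Lgr5-GFP-Cre library (log2 -0.70, adjusted p 0.0961). Cbfa2t3 was not called (log2 0.81 ± 0.37, adjusted p 0.0737), but was by DESeq2 (log2 0.88, adjusted p 0.0488) and with the compared groups only (log2 0.80, adjusted p 0.0144), and Gfi1 was not called (log2 -0.43). Immune markers summed to 365 to 907 CPM in Bmi1-GFP cells, against 12.2 to 16.7 CPM in Lgr5-GFP-Cre cells. All 4 stem markers were lower (766 to 1274 CPM, against 4790 to 6901 CPM), as were all 4 Paneth markers (4227 to 6679 CPM, against 24902 to 29337 CPM). Of 7 enterocyte markers 6 were higher (3537 to 9431 CPM, against 1419 to 2625 CPM), and of the goblet and tuft markers 3 of 4 each. The part of these markers in the members' values was not tested.

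Bmi1-GFP cells were set against enteroendocrine cells because endocrine genes were high in both. Of the endocrine factors, 9 of 12 rose in Bmi1-GFP cells over Lgr5-GFP-Cre cells, where 27.9% of all genes were called higher. The 5 endocrine markers summed to 4459 to 9636 CPM in Bmi1-GFP cells, against 10952 to 22549 CPM in enteroendocrine cells. Of the 10 members 6 were called between the 2 groups, 1 higher and 5 lower in Bmi1-GFP cells, where 24.7% of all genes were called, 12.6% higher and 12.1% lower. Creb3l4 had 15.6, 19.3 and 19.9 CPM in Bmi1-GFP cells, against 42.7 and 37.0 CPM in enteroendocrine cells (log2 -1.20 ± 0.25, adjusted p 0.0029), with no overlap. Spdef (log2 -1.55 ± 0.34, adjusted p 0.00371), Cbfa2t3 (log2 -1.47 ± 0.39, adjusted p 0.0120), Sox9 (log2 -1.30 ± 0.31, adjusted p 0.00661) and Foxa3 (log2 -1.11 ± 0.35, adjusted p 0.0271) were lower and Atoh8 was higher (log2 1.97 ± 0.47, adjusted p 0.00639).

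Without the first enteroendocrine library Spdef (log2 -1.24, adjusted p 0.0682), Cbfa2t3 (log2 -1.04, adjusted p 0.190), Foxa3 (log2 -0.78, adjusted p 0.279) and Atoh8 (log2 1.71, adjusted p 0.0859) lost their calls, leaving 2 of the 6. Sox9 lost its call without the second (log2 -0.62, adjusted p 0.208), and Foxa3 also without the first or the third Bmi1-GFP library (adjusted p 0.102 and 0.0877). Atoh1, Gfi1, Klf4 and Sox4 were not called (log2 -0.53, -0.31, -0.37 and -0.45). In Bmi1-GFP cells 4 of 4 Paneth markers were lower, summing to 4227 to 6679 CPM, against 29381 to 32552 CPM in enteroendocrine cells, and 3 of 4 tuft markers were lower, at 129 to 292 CPM, against 450 to 2368 CPM. Of 7 enterocyte markers 6 were higher (3537 to 9431 CPM, against 980 to 1729 CPM), and of 5 immune markers 3 were higher and 1 lower (365 to 907 CPM, against 239 to 317 CPM). Their part in the members' differences was not tested.

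CD274+CD69+ cells without toxin had 6 of the 10 members called against Lgr5-GFP-Cre cells, 1 higher and 5 lower, where 45.3% of all genes were called, 24% higher and 21.3% lower. Klf4 had 51.8 and 55.4 CPM in CD274+CD69+ cells, against 13.9, 17.9 and 15.5 CPM in Lgr5-GFP-Cre cells (log2 1.77 ± 0.34, adjusted p 3.96e-04). Atoh8 had 1.38 and 1.76 CPM in CD274+CD69+ cells, against 24.1, 21.8 and 20.7 CPM in Lgr5-GFP-Cre cells (log2 -3.81 ± 0.47, adjusted p 5.55e-06). Sox9 (log2 -2.06 ± 0.34, adjusted p 1.16e-04), Foxa3 (log2 -1.98 ± 0.38, adjusted p 3.99e-04) and Sox4 (log2 -1.94 ± 0.33, adjusted p 1.4e-04) were lower, with groups that did not overlap. Creb3l4 was called by a narrow margin (log2 -0.65 ± 0.26, adjusted p 0.0490) and was not called when either CD274+CD69+ library (log2 -0.62 and -0.68, adjusted p 0.193 and 0.165), or the first or the third Lgr5-GFP-Cre library (log2 -0.61 and -0.63, adjusted p 0.103 and 0.0922), was left out. Although 4 goblet markers summed to 7357 to 8527 CPM in these cells, against 1030 to 1539 CPM in Lgr5-GFP-Cre cells, Atoh1 (log2 -0.63 ± 0.29, adjusted p 0.0912) and Spdef (log2 -0.10 ± 0.34, adjusted p 0.848) were not called. Gfi1 (log2 0.27) and Cbfa2t3 (log2 0.01) were not called either, and Atoh1 was with the compared groups only (log2 -0.62, adjusted p 0.0111). In CD274+CD69+ cells 4 of 4 stem markers were lower, summing to 962 to 978 CPM, against 4790 to 6901 CPM in Lgr5-GFP-Cre cells, and 4 of 4 Paneth markers were lower, at 8223 to 10323 CPM, against 24902 to 29337 CPM. Of 7 enterocyte markers 6 were higher, at 8499 to 8836 CPM, against 1419 to 2625 CPM. Their part in the members' values was not tested.

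Diphtheria toxin acts on mouse cells that carry its receptor, and the labels give the toxin-treated mice as wild type, so these data do not show whether the toxin acted. After it, 0 of the 10 members were called in CD274+CD69+ cells against those without toxin, where 0.175% of all genes were called, 0.0741% higher and 0.101% lower. By edgeR's quasi-likelihood test 0 members had an unadjusted p under 0.05, and DESeq2 called 0. Atoh1 had 40.0 and 29.5 CPM in toxin-treated cells, against 24.0 and 24.2 CPM in untreated cells (log2 0.54 ± 0.32, adjusted p 0.928). Klf4 had 27.4 and 45.7 CPM in toxin-treated cells, against 51.8 and 55.4 CPM in untreated cells (log2 -0.54 ± 0.37, adjusted p 0.985). With 2 libraries in each group, neither difference passed the test. Foxa3, Sox9, Sox4 and Cbfa2t3 had log2 fold changes of 0.54, 0.43, 0.39 and 0.46, and Spdef, Gfi1, Creb3l4 and Atoh8 of 0.05, 0.20, -0.06 and 0.08. The first untreated library was made with the TruSeq kit and the second with SMART-Seq.

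The 2 Lgr5-GFP lines, both sorted for GFP, differed in 2 of the 10 members, both higher in Lgr5-GFP-DTR cells and 0 lower, where 20.5% of all genes were called, 9.49% higher and 11.1% lower. Creb3l4 had 72.6 and 58.9 CPM in Lgr5-GFP-DTR cells, against 33.7, 30.8 and 33.9 CPM in Lgr5-GFP-Cre cells (log2 1.04 ± 0.25, adjusted p 0.00778). Klf4 had 42.3 and 24.1 CPM in Lgr5-GFP-DTR cells, against 13.9, 17.9 and 15.5 CPM in Lgr5-GFP-Cre cells (log2 1.11 ± 0.34, adjusted p 0.0295). Neither overlapped. Without the first Lgr5-GFP-DTR library Creb3l4 had a log2 fold change of 0.87 (adjusted p 0.0501) and Klf4 of 0.65 (adjusted p 0.291), and Klf4 was not called without any 1 of the Lgr5-GFP-Cre libraries (adjusted p 0.0572 to 0.0857). The Gfi1 libraries differed most, with 17.5 and 4.24 CPM in Lgr5-GFP-DTR cells, and Gfi1 was not called (log2 1.32 ± 0.49, adjusted p 0.0646) but was without the second of them (log2 2.01, adjusted p 0.00905). Atoh1 (log2 0.68), Spdef (0.62), Foxa3 (0.35), Sox9 (0.04), Sox4 (-0.28), Atoh8 (-0.42) and Cbfa2t3 (0.60) were not called. Of 8 Paneth products 7 rose in Lgr5-GFP-DTR cells (median log2 2.19), whose summed Paneth markers were given above, and their tuft markers summed to 581 to 856 CPM, against 8.60 to 13.9 CPM in Lgr5-GFP-Cre cells. The part of either list in the Creb3l4 difference was not tested.

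**Figure D3:**
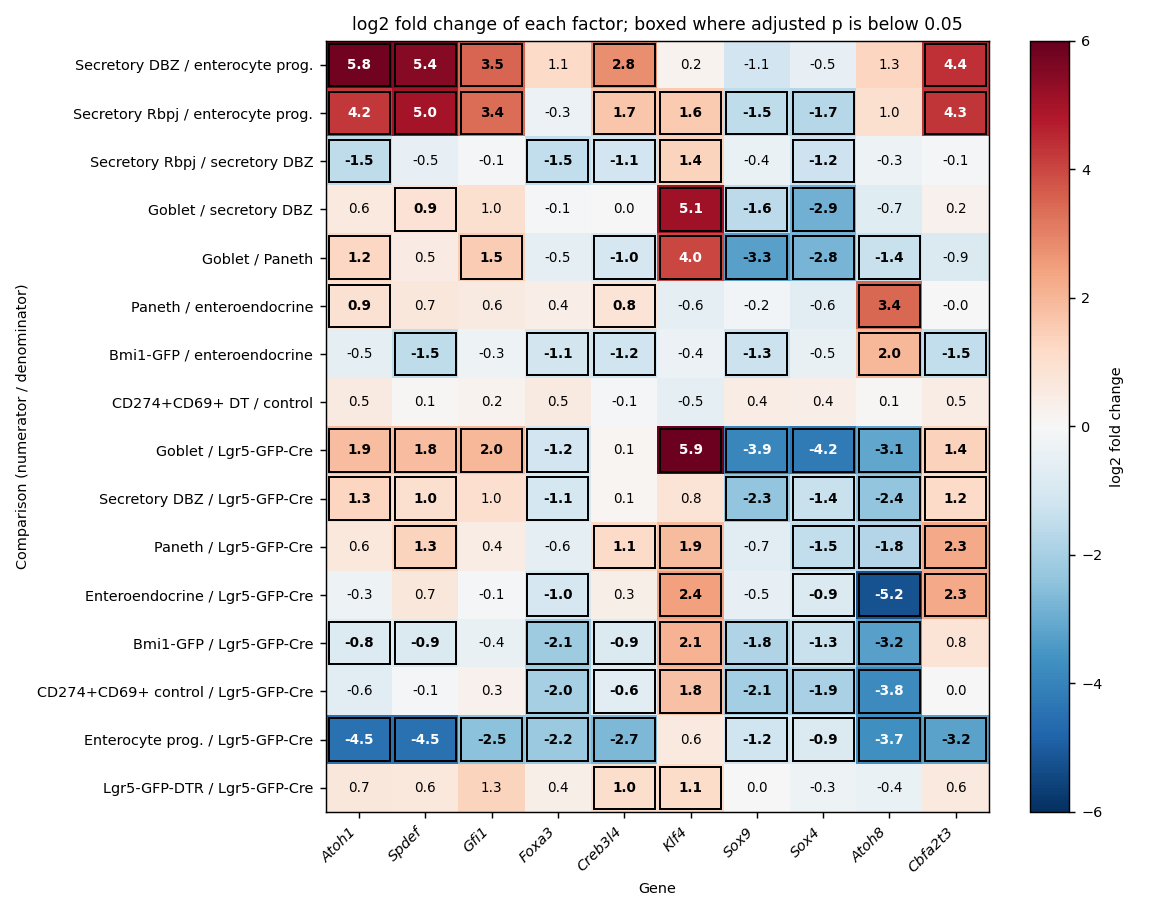
The map gives the log2 fold change of each member (columns) in each of 16 comparisons (rows, numerator over denominator), in red where higher and blue where lower, boxed where the adjusted p was below 0.05. Klf4 in goblet cells (5.9 over Lgr5-GFP-Cre cells) and Atoh1 in DBZ over Atoh1-deleted crypts (5.8) are the deepest red, and Atoh8 is blue and boxed in 7 of the 8 comparisons with Lgr5-GFP-Cre cells.

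Bmi1-GFP cells taken 36 h after 10 Gy were a single library, so its values have no replicate check and no test. Of the 10 members 7 lay beyond the range of the 3 unirradiated libraries by more than 1 on the log2 scale, 6 below and 1 above, against 31.3% of all genes. Klf4 had 274 CPM in the irradiated library, against 96.9, 42.4 and 63.7 CPM in the unirradiated ones. It was the member above the range. Sox9 had 25.3 CPM in the irradiated library, against 123, 162 and 92.5 CPM in the unirradiated ones. Sox4 had 22.4 CPM in the irradiated library, against 115, 101 and 61.8 CPM in the unirradiated ones. Both were the lowest of their Bmi1-GFP set, as were Foxa3 at 12.0 CPM, against 30.3 to 44.9 CPM, Cbfa2t3 at 4.50 CPM, against 13.4 to 17.3 CPM, and Gfi1 at 1.17 CPM, against 2.94 to 4.13 CPM.

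Atoh8 was read 3 times in the irradiated library (0.185 CPM), against 1.80 to 2.97 CPM in the unirradiated ones. Atoh1 stayed within the range, at 19.7 CPM in the irradiated library, against 18.2 to 26.5 CPM in the unirradiated ones. Spdef and Creb3l4 were below it by less than 1 on the log2 scale. The enterocyte markers summed to 71800 CPM in the irradiated library, against 3537 to 9431 CPM in the unirradiated ones, stem markers to 28.5 CPM against 766 to 1274 CPM, and endocrine markers to 1422 CPM against 4459 to 9636 CPM. Their part in the members' values was not tested.

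**Figure D4:**
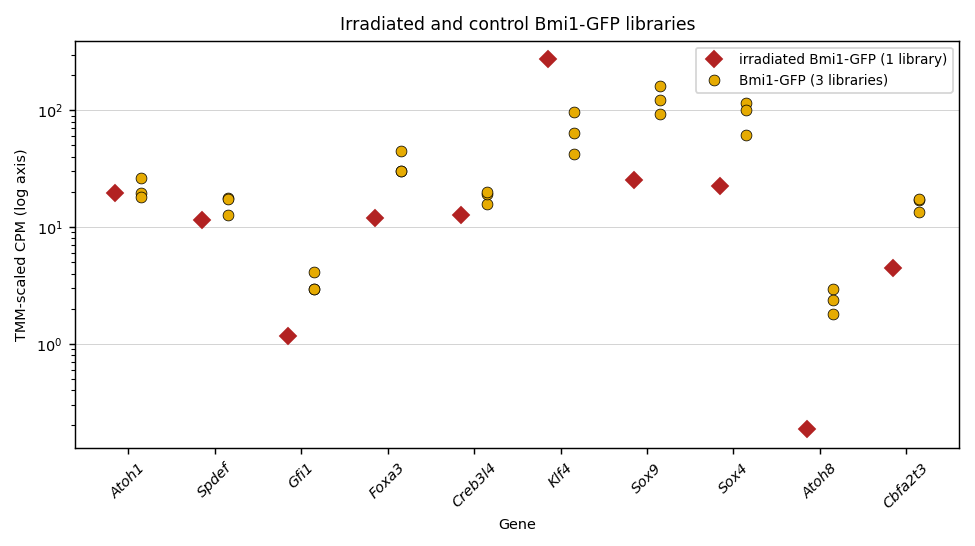
Points give the TMM-scaled CPM (log axis) of each member in the irradiated Bmi1-GFP library (diamond) and in the 3 unirradiated libraries (circles). The diamond lies above the circles for Klf4 (274 CPM), among them for Atoh1 (19.7 CPM) and below them for the other 8 members.

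Over the 25 libraries, Atoh1 and Spdef had the most alike levels of any 2 members, with a Pearson r of log2 CPM of 0.96 (Spearman rho 0.86). The libraries are not independent points, since replicates of a group share their source and the 2 kits and depths differ, so this is a description only. Without the 2 Atoh1-deleted libraries, which are lowest for both genes, r was 0.88 (n = 23), and the closest pair was then Sox9 and Sox4, at 0.89. Over all 25 libraries Sox9 and Sox4 had r = 0.89, and Spdef and Cbfa2t3 also r = 0.89, the second pair at 0.69 without the Atoh1-deleted libraries. Klf4 and Sox4 ran opposite (r = -0.80, n = 25), at r = -0.46 without the goblet and irradiated libraries (n = 22).

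The genes most like a member were sought among the 14837 tested, leaving out gene models with no gene name. Those with levels most like Atoh1 were Spdef (r = 0.96), Rep15, Tpsg1 and Irak3 (0.92, 0.91 and 0.91) and Ern2 (0.90), which encodes a stress sensor of mucus-making cells. Rep15 and Tpsg1 had 0 to 0.0915 CPM in the Atoh1-deleted libraries, and r without those libraries is not given for these genes. Irak3 and Rep15 were also nearest to Spdef after Atoh1 (both r = 0.94). Gfi1 was most like Txndc5, an enzyme that helps proteins fold, at r = 0.89, then Atoh1 (0.87) and Creb3l1 (0.86). Creb3l4 was most like Ccl6 (0.95), Mmp7 (0.94), a protease that processes Paneth cell defensins, and Wnt3 (0.93), a growth signal that Paneth cells make. Cbfa2t3 was most like Rap1gap, Plcb1 and Rep15 (0.92, 0.90 and 0.89). Klf4 was most like Fam46a, Casz1 and Trim25 (0.96, 0.94 and 0.94), Sox9 like Lzts2, Cdc42ep1 and Lrpap1 (0.95, 0.93 and 0.93) and Sox4 like Nrtn, Zfp444 and Slc25a29 (0.95, 0.95 and 0.94). Foxa3 was most like Dexi, Fam174b and Slc9a3r2 (0.89, 0.88 and 0.85). Atoh8 had the weakest neighbours, Prss8, Mylk3 and Tfpi (0.84, 0.82 and 0.81).

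**Figure D5:**
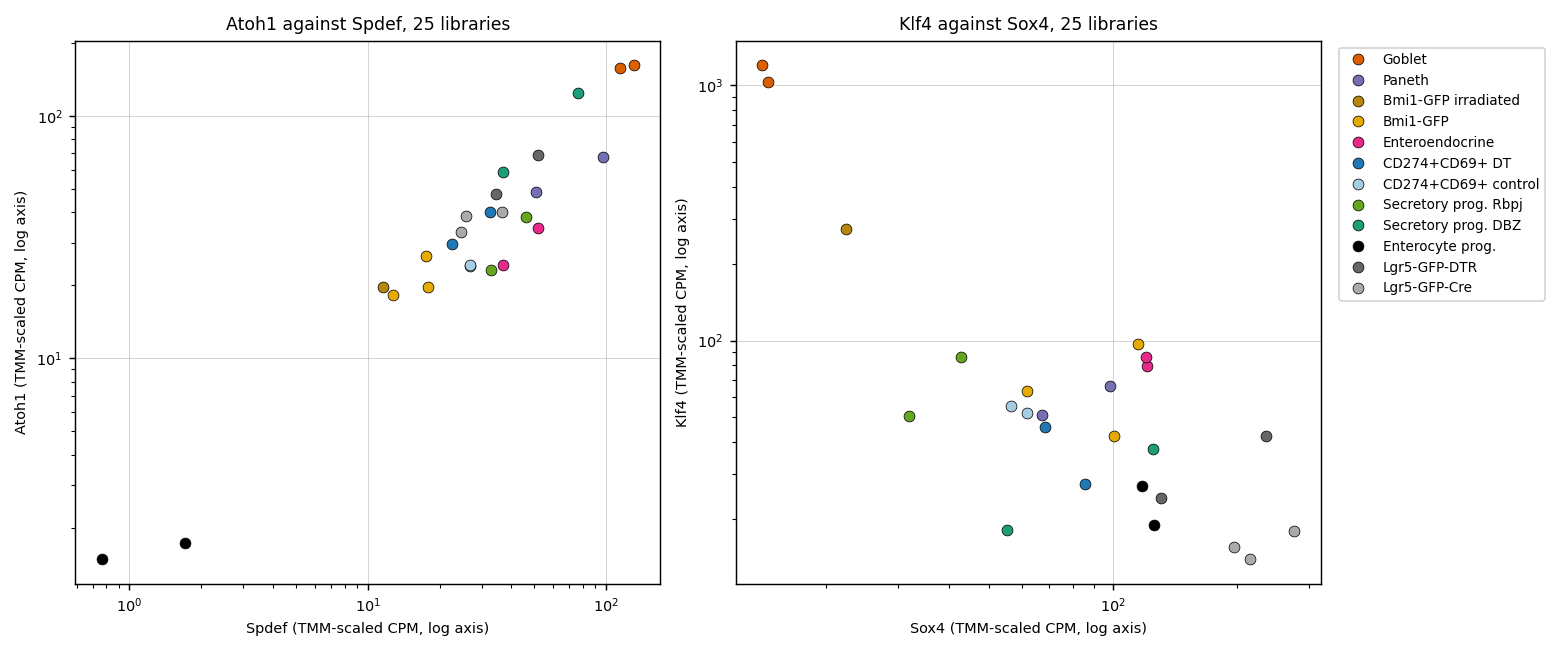
Each point is 1 of the 25 libraries, coloured by group, with Atoh1 against Spdef (left) and Klf4 against Sox4 (right) in TMM-scaled CPM on log axes. Atoh1 and Spdef lie along a line (r = 0.96) with the Atoh1-deleted crypts alone at the lower left, and the 2 goblet libraries lie alone at the upper left of the Klf4 and Sox4 plot.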

How the data were processed

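RNA sequencing of 25 libraries is used here, from RNA extracted with TRIzol and read as 75 bp single ends on an Illumina NextSeq instrument, per the labels' protocols. The values are raw read counts per gene, as deposited by the authors in 1 table with no normalization. The submitters' processing notes name Bowtie2, TopHat2 2.0.6, DESeq2 and the build mm10, and of the counting program, the annotation and the use of strand each is not given in the sources used here. All columns of the table were matched to samples by name (0 unmatched).

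Genes were filtered with filterByExpr (minimum count 10, minimum total 15), scaled by TMM and tested with edgeR 4.0.16 in R 4.3.3, with quasi-likelihood tests in 1 model of 24 libraries in 11 groups, so that all groups share 1 estimate of the spread. The irradiated group, with 1 library, was left out of that model and has no test. Benjamini-Hochberg adjustment ran over 14837 genes in each of 16 comparisons, with calls at an adjusted p below 0.05, and p-values in the text are edgeR's unless DESeq2 (version 1.42.0) is named. Each SE is the log2 fold change divided by the root of its F statistic. CPM levels and correlations (log2 CPM, prior count 2) use TMM scaling over all 25 libraries. The test was also run on simulated data with large changes set in well-counted genes of a single comparison. The outcome is not given here, and that run does not speak to small changes or low counts. Total counts per library ranged from 11179085 to 27371108, and the lowest count of a member was 3. Among the list genes, the folds of Isl1 and Runx1t1 rest on at most 3 counts in Atoh1-deleted crypts.

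The members and gene lists were chosen with earlier results of these data known. The rule for named genes took all 10 members in every comparison, any partner or paralogue of a member, at most 3 called genes of lowest adjusted p in a list, and the genes whose levels are most like a member's, leaving out gene models with no gene name; of the list genes it allows, the text gives some. Hes1, Lfng and Nrarp were named outside that rule, after their values were seen. Alternatives were DESeq2 size factors, no filter, the DESeq2 test, the compared groups only, the replicate number as a block, leaving out the 3 TruSeq libraries and leaving out each library in turn. Those for the irradiated library were chosen after seeing the data. Promoter stretches are from RefSeq, build GRCm38.p6.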

Additional observations from a re-analysis of the deposited data

How the results depend on the processing

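Of 90 calls on members in the 16 comparisons, 52 kept their direction and stayed below the threshold under every alternative run, and 0 changed direction under any. Of 1680 alternative values for the 160 member results, 1520 kept direction and side of the threshold, 95 lost a call, 18 gained one and 47 changed sign, all 47 among results that were not called. Fits without 1 library of a pair assume that the lone library varies like the other groups. Leaving out the TruSeq libraries was not run for the Rbpj-deleted crypts, which are all TruSeq.

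In the fit of the compared groups only, 3 members were called in Rbpj-deleted over DBZ crypts (5 in the full fit), 1 in Paneth over enteroendocrine cells (3) and 1 in Lgr5-GFP-DTR over Lgr5-GFP-Cre cells (2). Over all genes, these comparisons had 2868, 1536 and 482 calls in that fit, against 3671, 4368 and 3049 in the full fit. Leaving out 1 library, 2 to 4 were called in Rbpj-deleted over DBZ crypts, 4 to 6 in DBZ crypts over Lgr5-GFP-Cre cells (7), 2 to 6 in Bmi1-GFP over enteroendocrine cells (6), 1 to 3 in Paneth over enteroendocrine cells and 0 to 3 in Lgr5-GFP-DTR over Lgr5-GFP-Cre cells. The calls over all genes in these fits without 1 library are not given beside them. Whether the replicate numbers pair the libraries was not settled. Of 33 same-numbered pairs 8 had deviations correlated above 0.1, with a range of -0.208 to 0.33. Where both groups had 2 libraries, both pairs of a comparison hold the same value, so the pairs are not separate checks. The highest value was between Paneth and enteroendocrine cells, where Atoh1 was not called with the replicate block (log2 0.91, adjusted p 0.0507). With the replicate block, 5 members rather than 7 were called in DBZ crypts over Lgr5-GFP-Cre cells, 3 rather than 4 in goblet cells over DBZ crypts, 5 rather than 6 in Bmi1-GFP over enteroendocrine cells and in CD274+CD69+ over Lgr5-GFP-Cre cells, 2 rather than 3 in Paneth over enteroendocrine cells and 1 rather than 2 in Lgr5-GFP-DTR over Lgr5-GFP-Cre cells. Calls over all genes were, in order, 5046, 8076, 2920, 6287, 4108 and 2729, against 5450, 8161, 3665, 6714, 4368 and 3049 without the block.

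The sign changes are log2 fold changes near 0 or resting on 1 library. Leaving out 1 library, in DBZ over Atoh1-deleted crypts Klf4 ranged from -0.36 to 0.71 and Sox4 from -1.15 to 0.0397, and in Rbpj-deleted over Atoh1-deleted crypts Foxa3 from -0.66 to 0.0341. In Rbpj-deleted over DBZ crypts Spdef ranged from -0.95 to 0.11, Gfi1 from -0.58 to 0.40, Atoh8 from -0.81 to 0.30 and Cbfa2t3 from -0.74 to 0.93. In CD274+CD69+ over Lgr5-GFP-Cre cells Spdef ranged from -0.18 to 0.0684 and Cbfa2t3 from -0.15 to 0.16, with Cbfa2t3 also -0.0226 with DESeq2 size factors and the DESeq2 test and -0.0297 with the replicate block. In toxin-treated over untreated CD274+CD69+ cells Spdef ranged from -0.26 to 0.30, Gfi1 from -0.0247 to 0.38, Creb3l4 from -0.32 to 0.15 and Atoh8 from -0.0641 to 0.25, with Atoh8 at -0.0926 without the TruSeq libraries. Over Lgr5-GFP-Cre cells Gfi1 ranged from -0.50 to 0.19 in enteroendocrine cells, from -0.41 to 0.99 in Paneth cells and from -0.0388 to 2.01 in Lgr5-GFP-DTR cells, where Sox9 ranged from -0.18 to 0.23 and Sox4 from -0.77 to 0.0788, with Sox9 at -0.0855 with the replicate block and -0.0011 without the TruSeq libraries. In goblet cells over DBZ crypts Foxa3 ranged from -0.27 to 0.45, Creb3l4 from -0.0082 to 0.15 and Cbfa2t3 from -0.15 to 1.25, with Foxa3 at 0.19 with DESeq2 size factors and the DESeq2 test and 0.13 without the TruSeq libraries, and Creb3l4 at -0.005 with no filter. In Bmi1-GFP over enteroendocrine cells Gfi1 ranged from -0.62 to 0.0672. In Paneth over enteroendocrine cells Gfi1 ranged from -0.29 to 1.11, Foxa3 from -0.56 to 0.97, Sox9 from -0.62 to 0.54 and Cbfa2t3 from -0.58 to 0.41, with Cbfa2t3 at 0.0436 without the TruSeq libraries and 0.0266 in the compared groups only. In goblet over Paneth cells Foxa3 ranged from -1.12 to 0.42. The cause of these changes was not tested.

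DESeq2 size factors moved the median of all genes in goblet cells to 0.22 over Lgr5-GFP-Cre cells (0 with TMM), to 0.19 over DBZ crypts (-0.07) and to 0.0061 over Paneth cells (-0.17), and no called member changed direction. Over all genes, 365 calls in DBZ over Atoh1-deleted crypts became 660 with DESeq2 and 141 and 197 without the first and second Atoh1-deleted library, and 188 without the second DBZ library. The 26 calls after toxin became 56 with no filter, 8 without the TruSeq libraries, 126 with DESeq2, 425 in the compared groups only and 9 to 16 without 1 library. In the compared groups only, 6040 calls in Paneth over Lgr5-GFP-Cre cells became 3848, 4368 in Paneth over enteroendocrine cells 1536 and 3049 in Lgr5-GFP-DTR over Lgr5-GFP-Cre cells 482. Atoh8 is the member that depth limits most, with 3 counts in the irradiated library and 8 and 19 in enteroendocrine cells.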
